A study of Mus musculus
Rattus norvegicus and Mus musculus with 6 samples.

Results

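Heavy chains of MHC class I were measured by 10 probes of 7 genes, H2-K1, H2-D1, H2-Q2, H2-Q5, H2-Q6, H2-Q7 and H2-T23, among the 46628 probes of a mouse bead array. Of these 10 probes, 9 carry the gene ID of a member in their name, and the other (GI_6754137-S) was assigned to H2-Q5 by its identifier. The members were chosen because earlier results of the same arrays showed differences between the groups, so the differences between coculture and monoculture are described and not tested. The array compared lin-/c-kit+ bone marrow stem cells (hematopoietic SC) of C57Bl/6 mice, sorted 48 h after they were added to neonatal ventricular cardiac myocytes of Wistar rats (NRVCM), with the same kind of SC sorted 48 h into monoculture. There were 3 arrays of each group, each from its own preparation of cells, and the labels give the mice as male in both groups and the rats as female. The SC of both groups carried the fluorescent tracker CFDA and were sorted by FACS in a pair of consecutive steps, and the monoculture wells held more SC than the coculture wells, so that the number of SC per well and the contact with NRVCM cannot be told apart. The ages of the mice are not given in the labels.

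A class I molecule is a heavy chain bound to B2m (beta 2 microglobulin) that holds a short peptide made inside the cell and shows it at the cell surface. Peptides are cut by the proteasome, carried into the endoplasmic reticulum by the Tap transporter and loaded with the help of tapasin. T cells that carry Cd8 read the classical heavy chains H2-K1 and H2-D1, while the nonclassical chains of the Q and T regions have narrower roles. Nearly every nucleated cell makes class I, hematopoietic progenitors included, and interferons are known to raise it. The heavy chain genes are close copies of one another and differ widely between strains of mice. Which of the copies or alleles each probe reads was not tested, and the probe sequences were not used here.

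The arrays agreed closely within groups (Pearson r over all probes 0.987 to 0.993) and less between them (0.967 to 0.977). Values are log2 signals from 5.81 to 14.85, and the background limit, set on each array by its brightest probe for a reporter or vector sequence, lay between 6.57 and 6.71. Mpo, an enzyme of myeloid progenitors, had a log2 signal of 14.28 to 14.66 on the 6 arrays, while no probe for Kit was named. Hoxa9, a transcription factor of progenitors and the only other named marker of the labelled cells, had 7.16, 7.05 and 7.28 in coculture and 6.82, 6.86 and 6.79 in monoculture, a difference of 0.34 that passed the adjusted p of limma (0.032) but lay under 1.5-fold. The heart muscle genes Myh6, Myh7 and Ryr2 and all 5 fibroblast probes were at background on all 6 arrays, as were the T cell genes Cd3e and Cd8b1, and no B cell marker was named. Only 5 of 13 listed heart muscle genes were named. Of the others, Atp2a2, the calcium pump, had 7.62, 7.57 and 7.29 in coculture and 7.5, 7.32 and 7.44 in monoculture. Mybpc3 had 6.87, 6.98 and 7.20 in coculture and 6.81, 6.84 and 6.79 in monoculture. Its groups did not overlap, as for 23.1% of all probes (difference 0.21, adjusted p = 0.26 by limma). Sex chromosome genes set coculture 2 apart from the other 5 arrays: the Y-linked Eif2s3y was above background only on coculture 2 (8.93, against 6.23 to 6.33 on the other 5 arrays), and one probe for Xist, which is made from the inactive X chromosome of females, had 6.84 there and 8.21 to 8.80 on the other 5. The Y-linked Kdm5d was also above background on coculture 2 alone (6.94), while Ddx3y, both Uty probes and another Xist probe were at background on all 6 arrays, so that 3 of the 7 sex chromosome probes were above background on any array. The mice were labelled male throughout, and only coculture 2 had Y-linked signals above background, as this label would give. The other 5 arrays had the higher Xist signal and no Y-linked signal above background, unlike their label. The reason was not tested. Because coculture 2 stands apart in these genes, each heavy chain difference is also given without it. In RNA of sorted cells, fewer cells of a type and less RNA per cell cannot be told apart.

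The heavy chain probes did not move one way. Of the 10 probes, 4 had a coculture mean more than 1.5-fold above the monoculture mean (H2-D1, H2-Q6, H2-Q7 and probe B of H2-Q5), 5 had one more than 1.5-fold below it (H2-K1, both probes of H2-T23, probe A of H2-Q2 and probe A of H2-Q5), and 1, probe B of H2-Q2, was at background on all arrays. Of the 46628 probes on the array, 2.59% had a coculture mean that far above monoculture and 2.78% one that far below. The groups did not overlap for 9 of the 10 probes, which was the case for 23.1% of all probes. Called by limma, here and below, means a difference beyond 1.5-fold with an adjusted p under 0.05, and this held for 3.65% of all probes (1.73% higher and 1.93% lower). Since the members were chosen on this contrast, nothing is read from these counts. Of the 10 probes, 7 were above background on all 6 arrays. The median difference over all probes was 0.00.

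**Figure D1:**
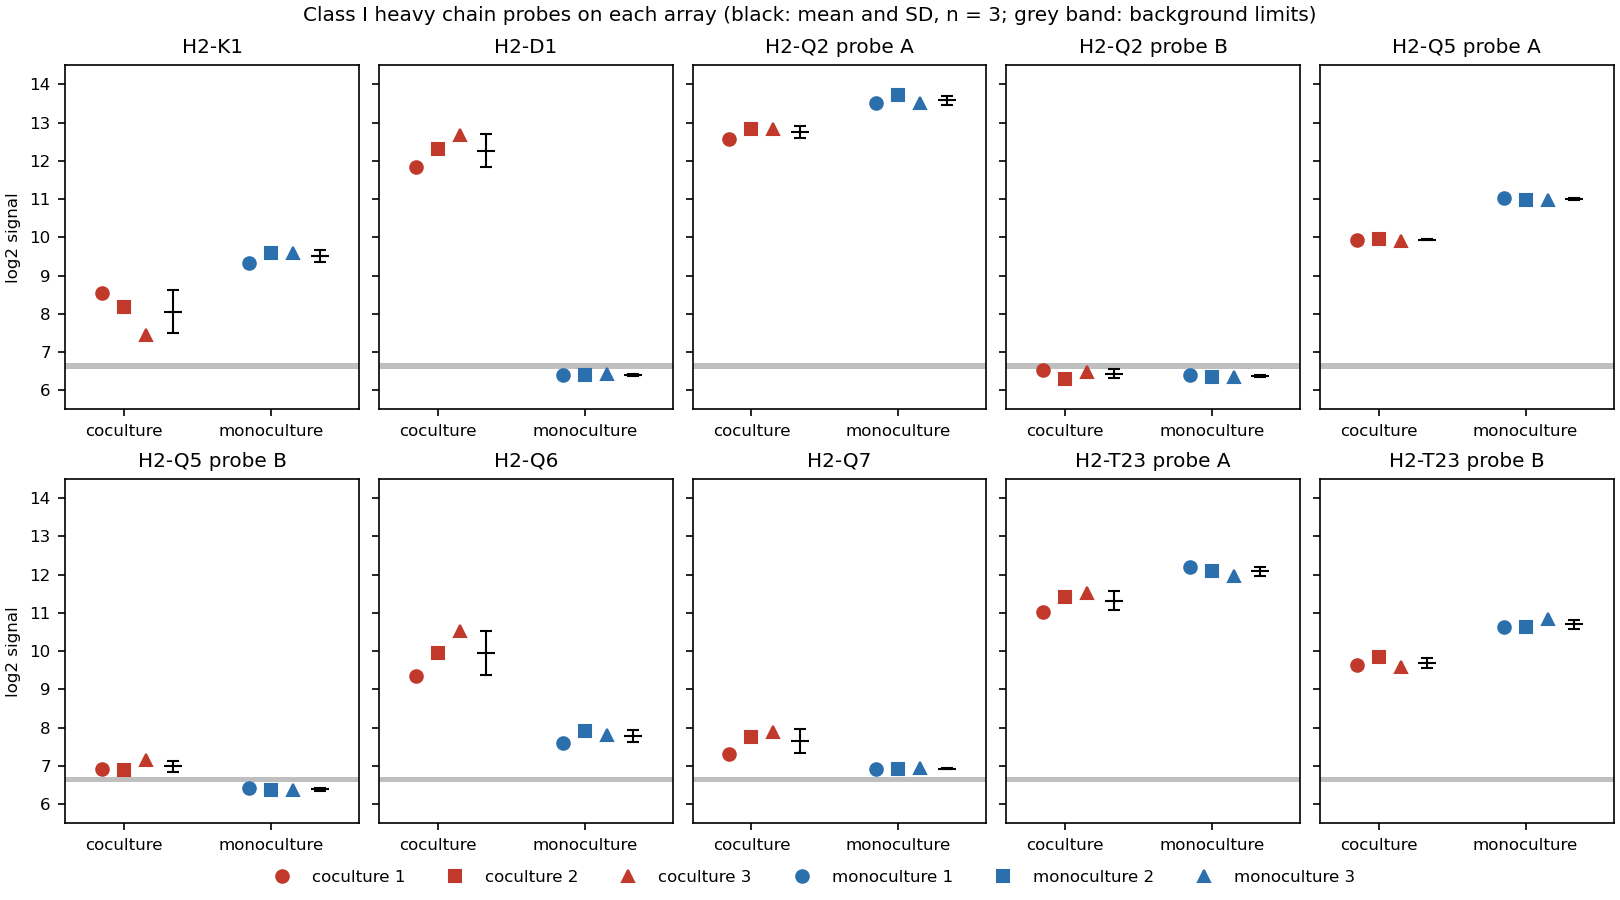
Log2 signal (vertical axis) of each of the 10 class I heavy chain probes on the 3 coculture arrays (red) and the 3 monoculture arrays (blue), with circles, squares and triangles for replicates 1, 2 and 3, black bars for the mean and SD (n = 3), and a grey band for the background limits of 6.57 to 6.71. H2-D1 lies under the band in monoculture and between 11.83 and 12.68 in coculture, while H2-K1 lies between 7.46 and 8.55 in coculture and between 9.34 and 9.60 in monoculture.

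H2-D1, a classical heavy chain, had log2 signals of 11.83, 12.30 and 12.68 in coculture and of 6.40, 6.39 and 6.43 in monoculture. All 3 monoculture arrays were under the background limit and all 3 coculture arrays were far above it, with a gap of 5.40 between the groups. Against this limit the signal was thus at least 49.8-fold higher in coculture. Against the brightest of all 64 control probes for foreign sequences, a stricter limit, the bound was 39.7-fold. The measured means were 12.27 ± 0.43 (SD, n = 3) and 6.40 ± 0.02 (SD, n = 3), a difference of 5.87 on the log2 scale. Without coculture 2 the difference was 5.85, and it ran from 5.66 to 6.09 when each array was left out in turn. C57BL/6 mice are known to carry and express H2-D1, and in monoculture this probe stayed at the level of probes for foreign sequences.

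H2-K1, the other classical heavy chain, was lower in coculture. Its log2 signals were 8.55, 8.18 and 7.46 in coculture and 9.34, 9.59 and 9.60 in monoculture. The groups did not overlap, and the gap between the highest coculture array and the lowest monoculture array was 0.79. The means were 8.06 ± 0.56 (SD, n = 3) and 9.51 ± 0.15 (SD, n = 3), a difference of -1.45, or 2.73-fold lower in coculture. The difference was -1.51 without coculture 2, and lay between -1.69 and -1.15 over the leave-outs. The probes named for the pair of classical heavy chains therefore differed from monoculture in opposite directions. Which copies or alleles these probes read was not tested.

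H2-Q6 and H2-Q7 are nonclassical genes that lie next to each other in the reference annotation and encode forms of the Qa-2 antigen. H2-Q6 had log2 signals of 9.36, 9.95 and 10.53 in coculture and of 7.61, 7.92 and 7.81 in monoculture. Every array was above background and the groups were 1.45 apart. The difference of the means was 2.17 (4.51-fold higher, 9.95 ± 0.58 against 7.78 ± 0.16, SD, n = 3), and it was 2.17 without coculture 2 as well. H2-Q7 had 7.30, 7.75 and 7.89 in coculture and 6.92, 6.93 and 6.94 in monoculture. The 3 monoculture values were close to the background limit, and they were under the brightest of all 64 foreign control probes (6.93 to 7.01 by array), which all 3 coculture values exceeded. The difference of H2-Q7 was 0.72 (1.64-fold higher, 7.65 ± 0.31 against 6.93 ± 0.01, SD, n = 3), and 0.67 without coculture 2. It was 0.59 without coculture 3, just past the 1.5-fold that was used to count it as higher.

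H2-Q2 was measured by 2 probes that did not behave alike. Probe A (scl015013.2_70-S) had log2 signals of 12.57, 12.83 and 12.84 in coculture and of 13.51, 13.71 and 13.52 in monoculture. Each coculture array was below each monoculture array, and the difference of the means was -0.83 (1.78-fold lower, 12.75 ± 0.16 against 13.58 ± 0.11, SD, n = 3), or -0.87 without coculture 2. Probe B (scl0015013.1_306-S) gave 6.52, 6.31 and 6.49 in coculture and 6.40, 6.34 and 6.36 in monoculture. All 6 of its values were under the background limit, so that no fold change is given for it. The RefSeq entry of H2-Q2 lists H2-D1 and H2-K1 among its synonyms.

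H2-Q5, which the reference annotates as a transcribed pseudogene, was measured by 2 probes that lay on opposite sides of monoculture. Probe A (scl0015016.1_231-S) had 9.94, 9.96 and 9.91 in coculture and 11.03, 10.98 and 10.99 in monoculture. The values within each group were nearly equal and the groups were 1.02 apart. The difference was -1.06 (2.09-fold lower, 9.94 ± 0.02 against 11.0 ± 0.03, SD, n = 3), and -1.07 without coculture 2. Probe B (GI_6754137-S) had 6.92, 6.90 and 7.16 in coculture and 6.43, 6.37 and 6.37 in monoculture. The monoculture values were under the background limit, which made the signal at least 1.28-fold higher in coculture (measured means 6.99 ± 0.14 and 6.39 ± 0.04, SD, n = 3, a difference of 0.60, and 0.65 without coculture 2). Without coculture 3 its difference was 0.52, under 1.5-fold. Only 1 coculture value of probe B exceeded the brightest of all foreign control probes, and against that stricter limit the bound was 1.02-fold.

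H2-T23 encodes Qa-1, which presents leader peptides of other class I chains to inhibitory receptors of natural killer cells. Its 2 probes had the same direction. Probe A (scl015040.2_130-S) had 11.03, 11.41 and 11.52 in coculture and 12.20, 12.10 and 11.96 in monoculture. The groups did not overlap, with a gap of 0.44, the smallest among the members that were lower in coculture. The difference was -0.77 (1.70-fold lower, 11.32 ± 0.25 against 12.09 ± 0.12, SD, n = 3), and -0.81 without coculture 2. Probe B (scl0015040.1_90-S) had 9.64, 9.84 and 9.60 in coculture and 10.63, 10.64 and 10.83 in monoculture. Its difference was -1.0 (2.0-fold lower, 9.70 ± 0.13 against 10.70 ± 0.11, SD, n = 3), and -1.07 without coculture 2.

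**Figure D2:**
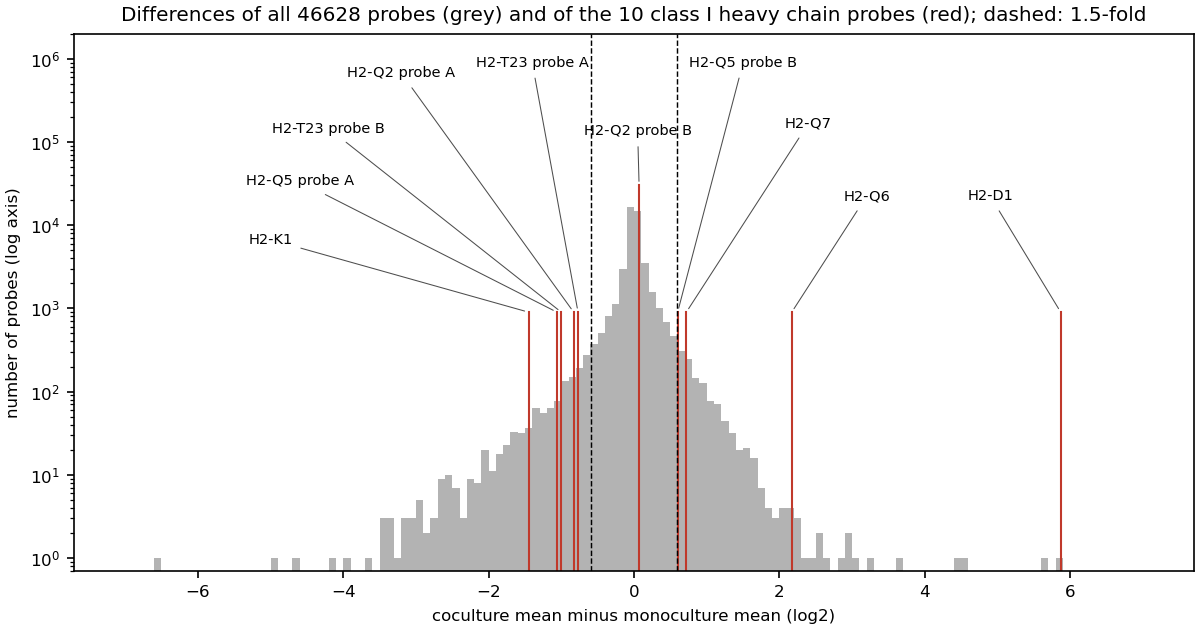
Number of probes (vertical axis, log scale) by the coculture mean minus the monoculture mean (horizontal axis, log2) for all 46628 probes in grey, with red lines at the 10 class I heavy chain probes and dashed lines at 1.5-fold. H2-D1 at 5.87 is at the right end of the distribution and H2-Q6 at 2.17 is in its right tail, while H2-K1, H2-T23 and probes A of H2-Q2 and H2-Q5 lie between -1.45 and -0.77.

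The spread between arrays was uneven. It is only described, because a choice by group differences can depend on it. In coculture, only 2.16% of the probes above background on all 3 arrays had a larger SD than H2-Q6, 2.43% had a larger SD than H2-K1 and 4.86% a larger one than H2-D1. In monoculture the same SD of H2-Q6 and H2-K1 were exceeded by 34.7% and 37.6% of the probes, so that these members varied more among the coculture arrays than most probes and about as much as other probes among the monoculture arrays. Other members differed in this. For H2-Q7, 10.9% of the probes had a larger SD in coculture and 98.8% in monoculture. Its monoculture values were close to the background limit, so nothing is read from their small SD. The shares were 39.2% and 49.6% for probe A of H2-Q2, 17.2% and 48.1% for probe A of H2-T23, and 49.2% and 49.5% for its probe B. Probe A of H2-Q5 varied little in both groups, and 95.6% of the probes had a larger SD in coculture and 93.4% in monoculture. The median SD over probes above background was 0.13 in coculture and 0.11 in monoculture.

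The order of the 3 coculture arrays was the same for several members. Coculture 1 was the lowest and coculture 3 the highest for H2-D1, H2-Q6, H2-Q7 and probes A of H2-Q2 and H2-T23, which are 5 of the 10 probes, and coculture 1 was the highest and coculture 3 the lowest for H2-K1. Among the 20397 probes above background on at least 3 arrays, 16.7% had the first order and 13.7% the second. The class II genes, which present peptides taken up from outside the cell, spread over the coculture arrays in the first order. Cd74, the invariant chain that escorts class II molecules, had 11.24, 12.39 and 13.39 in coculture and 13.32, 13.14 and 12.82 in monoculture. H2-Ab1, the beta chain of a class II molecule, had 9.95, 11.19 and 12.65 on one of its probes in coculture and 12.15, 12.29 and 11.65 in monoculture. The groups overlapped for both genes. Of the 6 class II probes with a gene ID in their name (5 of 10 listed genes), limma called 0. Of these, 0 had an unadjusted p under 0.05, and Cd74 had an adjusted p of 0.55. H2-Ea, another listed gene, was named in a different way. It is not among these probes and is given below. Without coculture 3, H2-DMb1 (adjusted p = 0.012), one probe of H2-Ab1 (0.041) and H2-DMb2 (0.027) were called lower. The log2 of the summed signals of the 6 class II probes, in which bright probes weigh most, ran from 13.02 to 14.85 in coculture and from 14.24 to 14.62 in monoculture.

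H2-Ea, the alpha chain of another class II molecule, is known not to be transcribed in C57BL/6 mice, the labelled strain. Its probe had 9.29, 11.20 and 13.10 in coculture and 6.72, 6.65 and 6.59 in monoculture, so that the coculture arrays were apart from monoculture and also far apart from one another. The coculture arrays held the same order as for H2-D1. The study lists H2-Ea among genes more than 1.5-fold higher in coculture with an adjusted p under 0.05. Its probe was named through that list. Whether the mice of the coculture and monoculture arrays had the same MHC haplotype was not tested.

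Some markers of macrophages were lower in coculture, as were H2-K1 and other heavy chain probes. Per the study's methods, cells that carried CD11b or Gr-1, surface proteins of macrophages and granulocytes, were depleted from the bone marrow before culture. Of 9 listed macrophage and dendritic cell genes 6 were named, with 8 probes, all above background on some array. Of these probes, limma called 4 lower in coculture and 0 higher, and the other 4 were not called. Cd68, a lysosomal protein of macrophages, had 10.96, 11.30 and 10.19 in coculture and 12.94, 12.85 and 12.82 in monoculture (difference -2.06, SE 0.26, adjusted p = 0.0098 by limma). Gpnmb, a glycoprotein of maturing macrophages, had 10.78, 10.32 and 7.97 in coculture and 14.30, 14.43 and 14.24 in monoculture on one of its probes (adjusted p = 0.015, and 0.063 without monoculture 1). Mertk, a receptor for dying cells, had 7.51, 8.06 and 7.23 in coculture and 9.08, 9.26 and 9.24 in monoculture. On each of these probes coculture 3 was the lowest array, as it was for H2-K1. The other heavy chain probes that were lower in coculture were divided in this. Coculture 3 was the lowest array, by little, for probe A of H2-Q5 and probe B of H2-T23. It was the highest coculture array for probes A of H2-Q2 and H2-T23. The probes that limma did not call were those of Csf1r (difference -0.92, adjusted p = 0.15), Itgam (-0.09, adjusted p = 0.91) and Lyz2. The Lyz2 probes differed by -0.14 (adjusted p = 0.31) and -0.39 (adjusted p = 0.44). The log2 of the summed signals of the 8 probes, in which bright probes weigh most, was 14.54 to 14.83 in coculture and 15.74 to 15.82 in monoculture. The part of these cells in the lower heavy chain signals was not tested. Of 5 listed endothelial genes 2 were named. Egfl7, which blood progenitors also make, rose from 6.77, 6.80 and 7.03 in monoculture to 8.14, 8.38 and 8.99 in coculture (difference 1.63, SE 0.21, adjusted p = 0.01), in the same order over the coculture arrays as H2-D1, while Pecam1 differed by -0.52 (adjusted p = 0.19, and 0.041 without coculture 3).

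**Figure D3:**
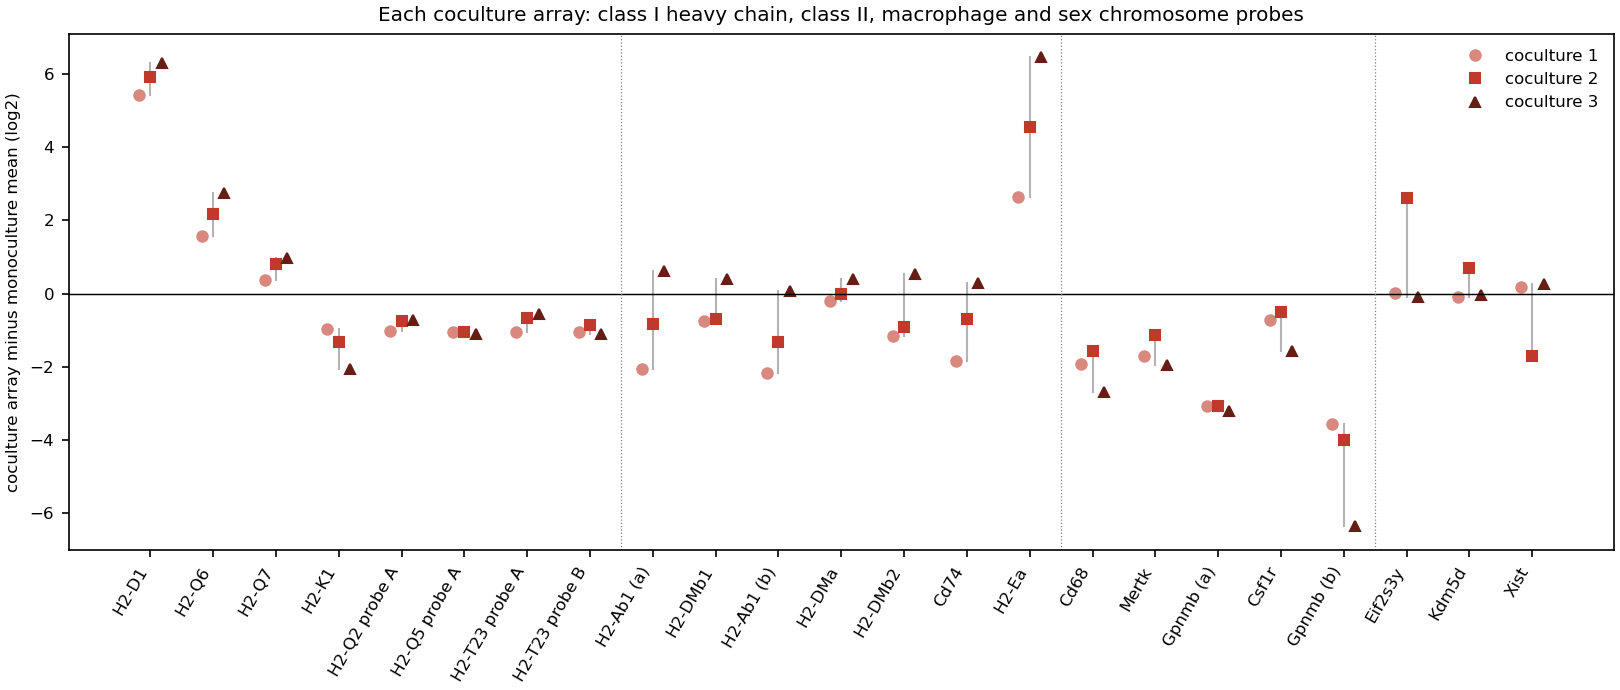
Log2 signal of each coculture array minus the mean of the 3 monoculture arrays (vertical axis) for heavy chain, class II, macrophage and sex chromosome probes, separated by dotted lines, with a circle, square and triangle for coculture 1, 2 and 3 and (a) and (b) for probes of one gene. Coculture 3 is highest for H2-D1, H2-Q6, H2-Ea, H2-Ab1 and Cd74 and lowest for H2-K1, Cd68 and Gpnmb, while coculture 2 alone is high for Eif2s3y and low for Xist.

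No named gene that cuts peptides for class I or loads them was called. Of 18 listed genes of class I antigen presentation 10 were named, with 14 probes. Of these, 5 were at background on all arrays, all of them probes of Erap1 and Lnpep. Limma called 0 of the 14 (1 at an unadjusted p under 0.05), with a median difference of 0.01 against 0.00 over all probes. As 3.65% of all probes were called, a count of 0 in a list this short is near that share, here and in the lists below. Psme1, an activator subunit of the proteasome, had log2 means of 12.65 ± 0.11 and 12.72 ± 0.14 (SD, n = 3) on one probe, a difference of -0.06 with a 95% interval of -0.28 to 0.15. Psmb10, a catalytic subunit of the immunoproteasome, differed by -0.01 (-0.18 to 0.16), and Uggt1, which checks the folding of glycoproteins, by 0.13 (-0.09 to 0.35). Each of these intervals lay within 1.5-fold of 0. Psmb8, another immunoproteasome subunit, had 10.18, 10.19 and 10.66 in coculture and 9.92, 10.04 and 9.82 in monoculture (difference 0.42, interval 0.08 to 0.76, adjusted p = 0.18). Tapbp, the gene of tapasin, differed by 0.01 (-0.37 to 0.39). No probe was named for B2m, Tap1 or Tap2.

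No named regulator of class I and no named gene of the interferon-stimulated list was called higher. Of 21 listed regulators 10 were named, with 11 probes, 1 of them at background on all arrays. Limma called 0 (1 passed the adjusted p alone, 3 an unadjusted p under 0.05), with a median difference of -0.05. Irf9, part of the factor that acts on interferon-stimulated genes, passed the adjusted p but not the fold (difference -0.24, interval -0.36 to -0.12, adjusted p = 0.048). Ifngr2, a chain of the interferon gamma receptor, had 11.69, 11.64 and 11.12 in coculture and 11.99, 12.09 and 12.30 in monoculture (difference -0.64, adjusted p = 0.079). Jak2, a kinase of that receptor, differed by 0.00 (-0.29 to 0.29), and Irf1, which acts on class I promoters, by -0.46 (-0.93 to 0.01, adjusted p = 0.28). Of 25 listed interferon-stimulated genes 10 were named, with 14 probes, 5 of them at background on all arrays. None of the 14 was called (3 at an unadjusted p under 0.05, median difference -0.01). Oas1a, an antiviral enzyme, had 9.99, 9.95 and 10.56 in coculture and 10.97, 11.0 and 10.61 in monoculture (difference -0.70, interval -1.15 to -0.24, adjusted p = 0.098). Igtp, a GTPase induced by interferon gamma, differed by -0.26 (-0.46 to -0.07), and Irf7 by -0.21 (-0.43 to 0.02). Oas1a was called lower without coculture 3 (adjusted p = 0.026) and Irf1 without monoculture 3 (0.042), and Ifngr2 was called lower under other settings of the fit.

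Other class I and class I-like heavy chains showed no called difference. Of 28 listed genes 11 were named, with 12 probes, 5 of them at background on all arrays, and limma called 0 (1 at an unadjusted p under 0.05, median difference -0.01). Mr1, which presents vitamin metabolites to a subset of T cells, had 7.05, 7.16 and 7.17 in coculture and 6.53, 6.53 and 6.92 in monoculture (difference 0.46, interval 0.19 to 0.74, adjusted p = 0.072, and 0.01 without monoculture 3, where it was called higher). H2-Q8, a further gene of the Q region, had 7.83, 8.01 and 8.23 in coculture and 7.89, 8.07 and 7.81 in monoculture, and its groups overlapped (difference 0.10, interval -0.18 to 0.38). H2-T22 differed by -0.06 on one probe (-0.33 to 0.21), and H2-T10 by -0.11 (-0.67 to 0.46).

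**Figure D4:**
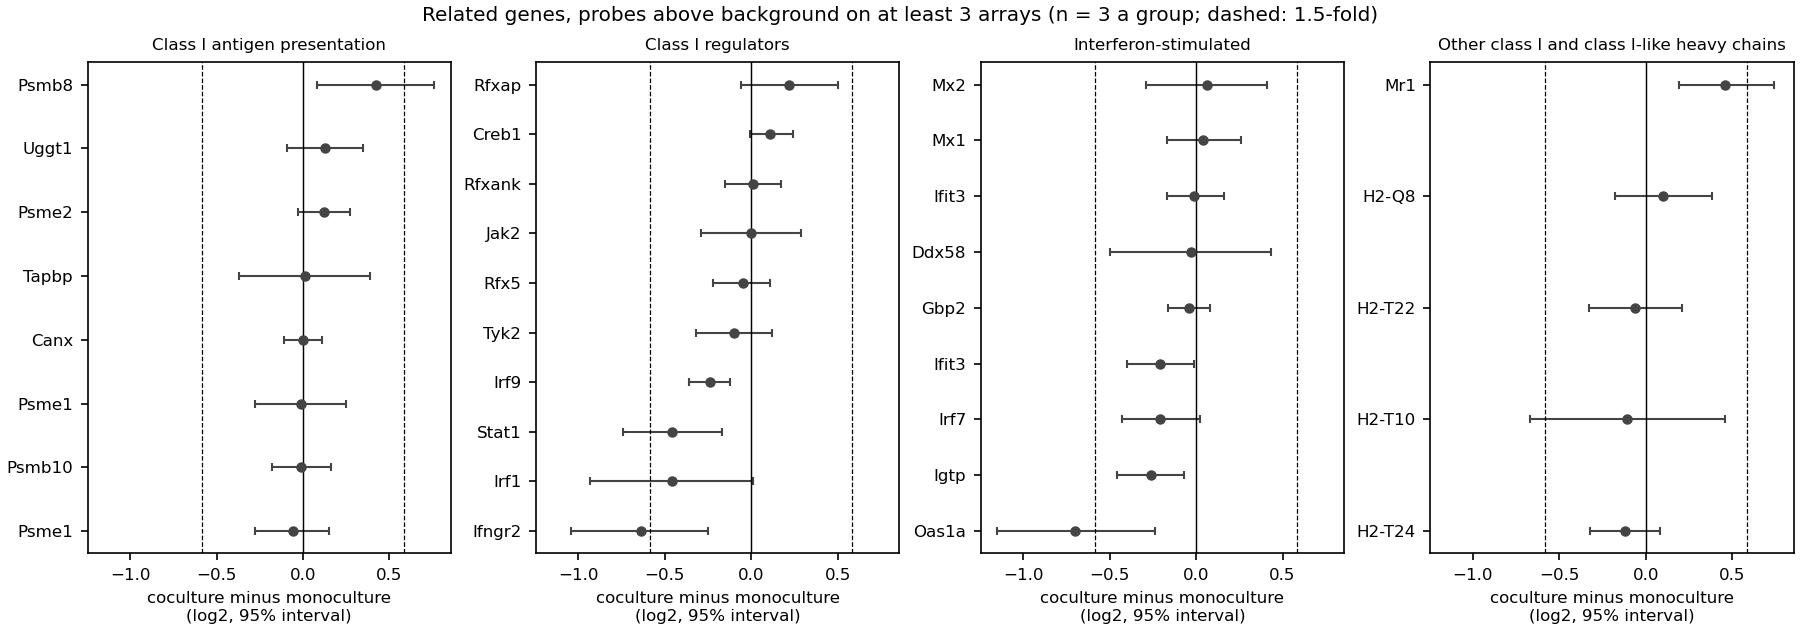
Coculture mean minus monoculture mean (horizontal axis, log2) with the 95% interval of limma for probes above background on at least 3 arrays in 4 lists of related genes, with dashed lines at 1.5-fold. The presentation genes lie between -0.06 and 0.42, and Oas1a at -0.70 and Ifngr2 at -0.64 are the lowest of all probes shown.

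The members lie in the order H2-K1, H2-D1, H2-Q2, H2-Q5, H2-Q6, H2-Q7 and H2-T23 in the mouse reference, with 120 genes between H2-K1 and H2-D1, 43 between H2-Q7 and H2-T23, and at most 4 between the others. The members that were higher and those that were lower in coculture were interleaved in this order. Of the 173 other genes from H2-K1 to H2-T23, 31 were named, with 40 probes. Limma called 3 of these probes higher and 1 lower, with a median difference of 0.04. Over all probes, 1.73% were called higher and 1.93% lower. Some of the 40 probes, such as those of H2-Ab1, Psmb8 and H2-T24, were also counted in the lists above. Vars2, a mitochondrial valyl-tRNA synthetase, rose by 0.98 (SE 0.09, adjusted p = 0.0038), and Nelfe, a subunit of a factor that pauses RNA polymerase, by 0.60 (SE 0.07, adjusted p = 0.0066). A930015D03Rik rose by 0.69 (adjusted p = 0.027), and Lst1, a myeloid gene, was lower in coculture with a difference of -0.84 (adjusted p = 0.031). Vars2 was still called when each of the 6 arrays was left out in turn. Nelfe kept an adjusted p of at most 0.033, but its difference was 0.55 without coculture 3 and 0.57 without monoculture 2, under the fold used. Lst1 did not pass without coculture 1 (adjusted p = 0.086) or without monoculture 1, 2 or 3 (0.10, 0.053 and 0.075), and A930015D03Rik did not pass without coculture 2 (0.053) or monoculture 1, 2 or 3 (0.10, 0.073 and 0.053) and had a difference of 0.56 without coculture 3.

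**Figure D5:**
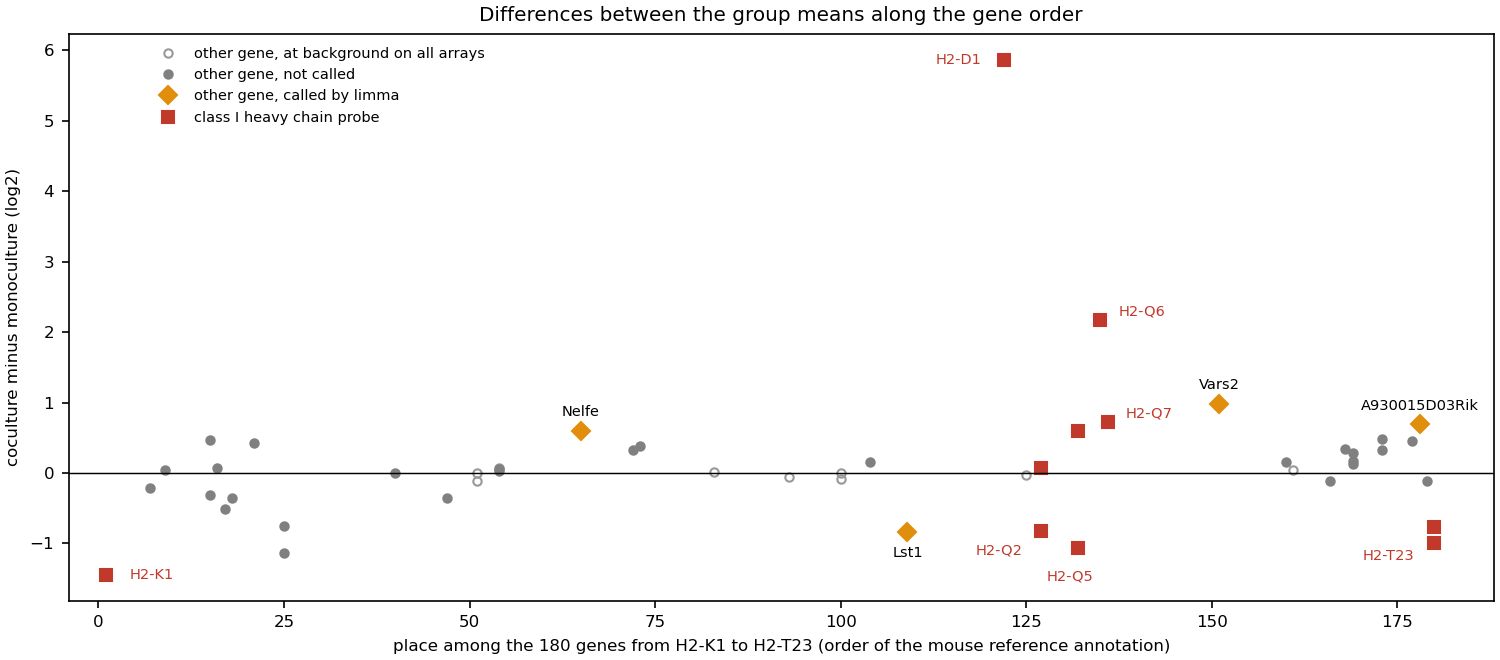
Coculture mean minus monoculture mean (vertical axis, log2) of heavy chain probes (red squares) and of probes for the other named genes (grey, or orange where limma called them), by the place of the gene among the 180 genes from H2-K1 to H2-T23 in the reference annotation (horizontal axis). The red squares at 5.87 for H2-D1 and -0.83 for probe A of H2-Q2 lie close together in this order.

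Genes with a pattern like those of the classical heavy chains over the 6 arrays were looked up among 5197 named probes above background on at least 3 arrays, members left out. The closest to H2-D1 by Pearson r were Zkscan17 (0.9966), Tbl2 (0.9966), Uhrf1 (0.9965), E2f2 (0.9961) and Metrn (0.9955). Their differences between the group means were much smaller than that of H2-D1, from 0.22 for E2f2 to 1.29 for Metrn. The closest to H2-K1 were Parp12 (0.9926), Slc11a1 (0.9925), Plekha1 (0.9903), Gpnmb (0.9901) and Mtfr1l (0.9899). Slc11a1, a metal transporter of macrophage phagosomes, had 12.06, 11.81 and 10.36 in coculture and 13.75, 13.76 and 14.00 in monoculture, in the same order over the coculture arrays as H2-K1. The 6 points share 2 groups, so that any probe that separates the groups has a high r, and 184 probes had an r above 0.95 with H2-D1 and 87 with H2-K1.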

How the data were processed

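RNA of lin-/c-kit+ SC from 6 cultures, 3 cocultures and 3 monocultures, was hybridized to Illumina Mouse Sentrix-6 bead arrays. Outlier beads were removed, bead values of a probe were averaged and arrays were brought to a common scale by what the study names a quartile normalization. The log2 values deposited by the authors are the result. The sorted values of the 6 arrays differed by at most 0.01, closer than matched quartiles alone would give. A change shared by most probes could therefore not be seen. Another deposited table was not used here, because its 12 columns carry names that match no label.

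The members and gene lists were chosen with earlier results of these data known. A gene ID inside a probe name gave a symbol through the RefSeq table of GRCm38.p6 to 9796 of 46628 probes (8102 genes). The 16482 probes with a 5-digit number and no padding zero were left unnamed, because most of these numbers are not gene IDs. H2-Ea was named by the match of its fold change (within 0.005) and adjusted p (within 5e-05) to a supplementary table of the study, so its difference is no independent result. On each array, the brightest signal among 25 probes for reporters and vectors set the background limit. A group under it on all 3 arrays was given as a bound.

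The group means of all 46628 probes were compared with limma 3.58.1 (R 4.3.3, Benjamini-Hochberg adjustment over all probes), and a call needed a difference beyond 1.5-fold with an adjusted p under 0.05. The fit was tested on simulated data. No test was made for the class I heavy chain probes, which were chosen from this contrast. Every probe of them is given, and of each related list every called gene, otherwise up to 3 genes of the highest mean signal, plus those that an alternative called. Psmb8, Tapbp, Erap1, Lnpep, Irf9 and the cell type markers that are printed were named after their values were seen. The alternatives were a filter on dim probes, an intensity trend with a robust prior, no fold threshold, a replicate block, other background limits, another centring, 1 probe for each gene, and leaving out each array. The limit at the brightest of all foreign control probes was chosen after the values were seen. Fits with 2 arrays in a group pooled the spread of both groups.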

Additional observations from a re-analysis of the deposited data

How the results depend on the processing

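No heavy chain difference changed its sign under the other centring, the array leave-outs or the replicate block. Nothing is read from the size of the shifts. Leaving out 1 of 3 arrays moves a mean by less than their SD in any case, and the block gives the same difference by construction. Without each array in turn, 3 to 4 of the 10 probes were more than 1.5-fold higher and 5 were more than 1.5-fold lower, and with 1 probe for each gene these were 3 and 4. With all foreign control probes as background, the bounds were 39.7-fold for H2-D1 and 1.02-fold for probe B of H2-Q5, by the construction of that limit. Over all probes, limma called 3014 with no fold threshold, and 1021 to 1829 without each array (1073 without coculture 1 and 1021 without monoculture 1, against 1704). Among the regulators, 1 gene was called with the dim-probe filter and with the intensity trend and robust prior (Ifngr2, lower), 1 with no fold threshold (Irf9, lower), and 0 to 1 without each array (Irf1, lower, without monoculture 3). Among the interferon-stimulated genes, 1 was called with the trend and robust prior (Oas1a, lower), and 0 to 1 without each array (Oas1a, without coculture 3). The other heavy chains had 0 to 1 (Mr1, higher, without monoculture 3), and the genes between the members 1 to 5, with 3 class II probes called lower without coculture 3. The cause of these changes was not tested. The replicate numbers do not pair the samples: deviations of same-numbered arrays from their group means correlated at -0.11, -0.11 and -0.10, and 0 of 3 coculture arrays correlated best with their own number. With the replicate number as a block, limma called 1181 probes over all, 3 of the genes between the members (without Lst1) and 0 in each of the other 4 lists, and 4 heavy chain probes were higher and 5 lower. Depth is not defined for these arrays, and 3 arrays a group limit the precision. Signals near background, such as those of H2-Q7 in monoculture and probe B of H2-Q5, understate any difference.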
